A study of Homo sapiens with 11 samples.

Results

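The transcriptome described here is that of control 769-P cells, an established human line of clear-cell renal carcinoma, in the 4 libraries labelled siSCR out of 11 in the series. The libraries were chosen by their label alone. All 4 came from wild-type cells, as the genotype label reads, that had been transfected for 48 h with a control siRNA, labelled at 20 µM, by means of the lipid reagent RNAiMAX. They were grown in DMEM in 6-well plates, and total RNA was taken with a silica column kit. The other 7 libraries, in which the aldehyde reductase AKR1A1 was targeted, were not compared here. The controls thus carry the transfection itself, and untransfected cells were not analysed here. The labels do not say whether the 4 libraries are separate cultures, so the spread between them may be technical. A single tumour line was studied.

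Clear-cell renal carcinoma arises from the tubular epithelium of the kidney. Its best known lesion is loss of VHL, the substrate receptor of a ubiquitin ligase that marks hydroxylated hypoxia-inducible factors (HIF) for destruction; without it HIF targets stay on in normal oxygen. The tumour cells are clear because they store lipid droplets and glycogen, and many express keratins with the mesenchymal filament vimentin. The gene lists below follow these features, from kidney identity through oxygen sensing, sugar and lipid metabolism and matrix to receptors and the cell cycle.

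Values are normalized counts, that is reads scaled by the authors' size factor of each library, given in the order siSCR 1, 2, 3 and 4. A gene is called expressed where all 4 libraries had at least 10 normalized counts, not detected where none had a read, and at trace level otherwise. Levels of different genes are compared only per kilobase of exon, as a mean ± SD over n = 4 libraries, and ranked among the 9186 expressed protein-coding genes. Of 33080 genes in the table, 9383 (28.4%) were expressed, 6466 (19.5%) were at trace level and 17231 (52.1%) were not detected. Of 19488 protein-coding genes, 9186 (47.1%) were expressed, 4076 (20.9%) were at trace level and 6226 (31.9%) were not detected. These shares are the background for every list. Since there is 1 group, no test was made; genes are said to differ in level where their ranges over the 4 libraries did not overlap. Members of a list are often named in the order of their means, but 264 of 344 neighbours in such orders overlapped.

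The libraries held 3836109, 2847615, 2271348 and 2965494 reads on genes, 11920566 in all. A gene with no read could therefore make up as much as 0.252 RPM (reads per 1000000 counted; 3 reads over the 4 libraries), and 2.52 to 3.92 normalized counts in a single library; such limits and all intervals cover counting error only. siSCR 1 stood apart from the other libraries. Mitochondrially encoded genes took 12.1% of its reads (95% Wilson interval 12.1% to 12.2%), against 4.46%, 3.46% and 4.28% in siSCR 2, 3 and 4. Of the expressed protein-coding genes, 34.6% were higher in siSCR 1 than in each other library and 37.9% were lower. Some genes are highest or lowest in any library, and these shares were not computed for siSCR 2, 3 and 4. The median ratio of the highest to the lowest library was 1.55 over all 4 and 1.27 without siSCR 1. Such a ratio cannot rise when a library is left out, and it was not computed without each of the others. Apart from ZEB1, levels without siSCR 1 are given for each expressed gene named in the report whose mean it moved by over 1.5 times.

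**Figure D1:**
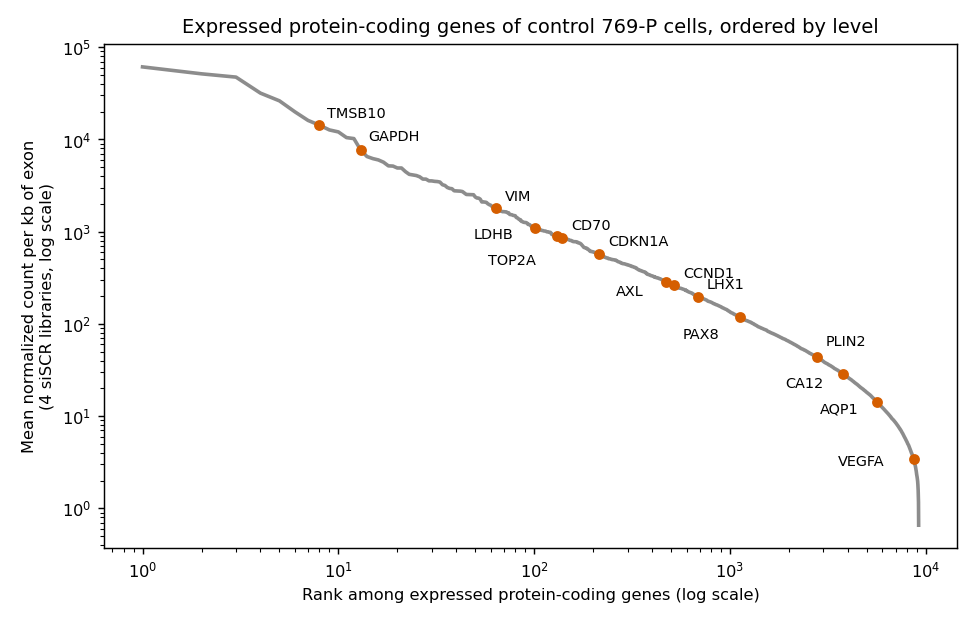
Mean normalized count per kb of exon over the 4 siSCR libraries (y axis, log scale) against the rank of each of the 9186 expressed protein-coding genes (x axis, log scale), with named genes as points. Levels run from a mitochondrial summit through TMSB10 at 14294 to a median of 20.9 and a minimum of 0.657.

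Mitochondrial genes had the highest levels per length. Of the 15 protein-coding genes of highest level, 10 were mitochondrially encoded: MT-ATP8, MT-ND3, MT-CO3, MT-CO2, MT-ATP6, MT-ND4, MT-ND2, MT-ND4L, MT-CYB and MT-ND1, all subunits of the respiratory chain or ATP synthase. MT-CO3, a subunit of cytochrome oxidase, had 84406, 21729, 19383 and 23239 normalized counts. All 13 mitochondrial protein genes were higher in siSCR 1 than in every other library, with a list median of 30446 per kb there and 10362 to 12948 elsewhere. Without siSCR 1, 9 of the highest 15 were mitochondrial, S100A11, a calcium-binding protein, taking the place of MT-ND1; MT-ATP8 fell to 39228, MT-ND3 to 34107, MT-CO3 to 27360.3, MT-ATP6 to 15007, MT-ND4 to 13196 and MT-CYB to 6058 per kb. The 5 nuclear genes among the 15 were TMSB10, which codes for an actin-sequestering thymosin, the ribosomal proteins RPS12 and RPS28, the histone H4C3 and the glycolytic enzyme GAPDH. TMSB10 had 5817, 6659, 7906 and 7978 normalized counts, or 14294 ± 2102 per kb. H4C3 had 2413, 5601, 4577 and 5191, and was lower in siSCR 1 than in the others. Ribosomal protein, histone, GAPDH and thymosin genes have near-identical copies in the genome, so their counts are uncertain.

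Levels fell off quickly below this summit. The gene at rank 918 had 149 normalized counts per kb and the median expressed gene had 20.9. Protein-coding genes held 98.9% of the reads. Only 93 of 7227 lincRNA genes (1.29%) and 85 of 5391 antisense genes (1.58%) were expressed. MALAT1, a nuclear lincRNA with 8829 exon bases, had high counts, with 14846, 7533, 7138 and 6272. Per kb it stood at 1013, under SNHG25 at 5398. Among expressed genes, the median level was 14.7 per kb over the whole of chromosome 3, which carries VHL, PBRM1, BAP1 and SETD2. Of the other autosomes, chromosomes 18 and 15 lay lower, at 13.2 and 13.4, and chromosome 19 was highest at 29.5. The short arm of chromosome 3, which is often lost in this cancer, was not analysed apart.

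**Figure D2:**
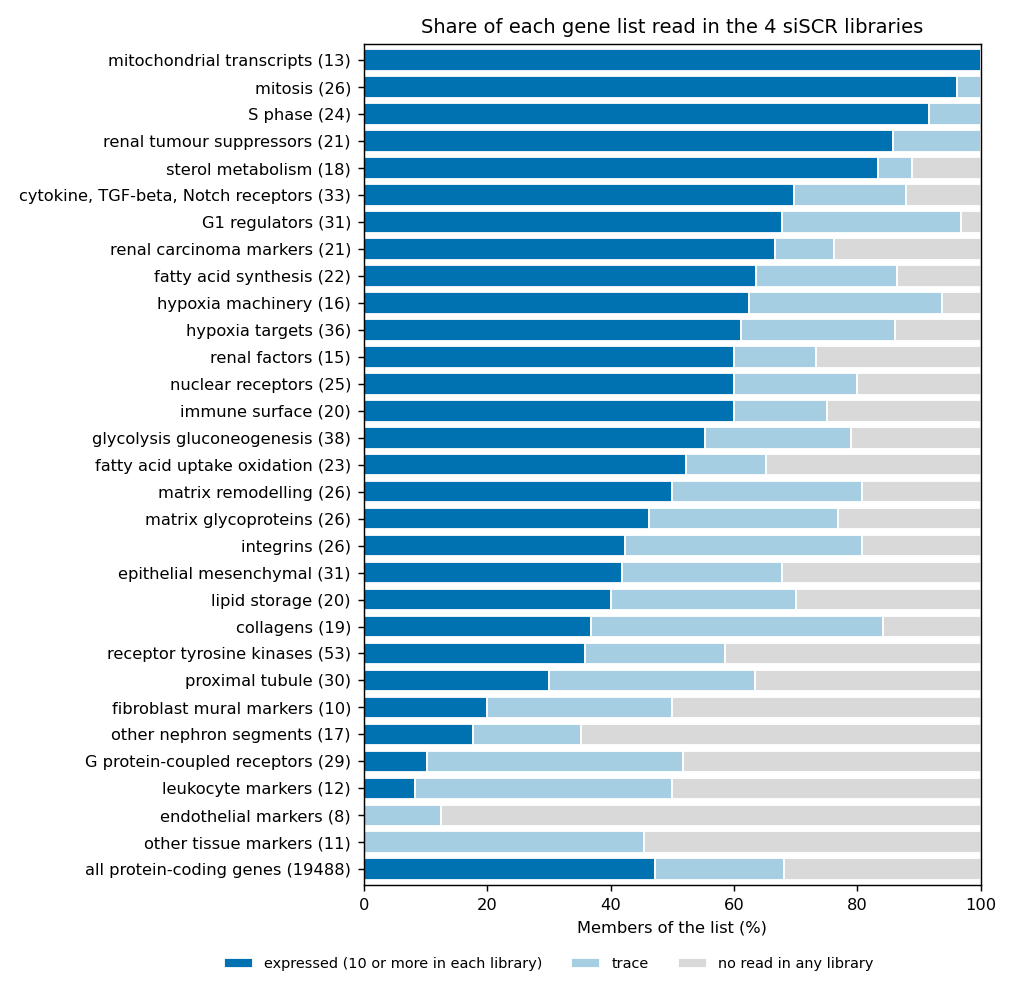
Share of each gene list (number of measured members in parentheses) that was expressed, at trace level or without a read in the 4 siSCR libraries, in percent on the x axis, with all 19488 protein-coding genes at the bottom. Mitochondrial, mitosis and S phase genes were nearly all expressed, and endothelial and other-tissue markers were not.

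The label of the cells was checked against 4 markers: PAX8, VIM, AQP1 and CA12 were all expressed. PAX8, the transcription factor of kidney and thyroid epithelium, had 1149, 745, 806 and 829 normalized counts and rank 1125. VIM, vimentin, had 8342, 9687, 9178 and 9687 and rank 64. AQP1, the water channel of proximal tubule, had 65.5, 52.3, 34.0 and 42.8 and rank 5650, and CA12, a membrane carbonic anhydrase, had 408, 166, 122 and 145 and rank 3790. PAX8 and VIM were above the median gene in level and AQP1 was below it. CA12 was above it at 28.7 per kb, but at 19.7 and below it without siSCR 1. Markers of other cells were mostly missing. Of 12 leukocyte markers 1 was expressed, CD68, with 57.0 to 112 normalized counts; it is also a lysosomal protein of many cells and shares 85.8% of its exon bases with another gene. The leukocyte markers CD3D, CD3E, MS4A1, LYZ and NKG7 were not detected, and PTPRC, the pan-leukocyte antigen, had 0 to 1.31. None of 8 endothelial markers was expressed and PECAM1, CDH5, VWF, TEK, CLDN5, KDR and ERG were not detected. Of 10 fibroblast and mural markers, ACTA2, smooth muscle actin, had 863 to 1539.6 and COL1A1 16.3 to 47.1, while DCN, LUM, PDGFRA, COL1A2 and THY1 were not detected. Of 11 markers of liver, blood, brain, muscle, lung and pancreas none was expressed, and ALB, albumin, had 0 to 0.840.

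Kidney lineage factors were expressed in part. Of 15 factors and lineage markers 9 were expressed (60%, against 47.1% of all protein-coding genes). A further 2 were at trace level and HNF4A, EMX2, OSR1 and EYA1 had no read. The list median was 5.56 per kb against 2.06 over all protein-coding genes. LHX1, a homeobox factor of the early nephron, had 408, 1073, 1206 and 1182 normalized counts, 198 ± 77.3 per kb and rank 686 (chromosome 17 from 36936785 to 36944612, GRCh38). siSCR 1 was the low library there, at 0.354 times the mean of the others. PAX8 stood at 119 ± 24.5 per kb (chromosome 2 from 113215997 to 113278950); its range overlapped that of LHX1, which was the lower of them in siSCR 1. PAX8 was 9.23 times PAX2, its paralogue in the kidney, at 12.9 ± 3.49 per kb. CDH16, the kidney-specific cadherin, had 47.9, 41.7, 56.2 and 69.3 normalized counts, and HNF4G, a nuclear receptor, had 47.9, 73.7, 66.7 and 49.9. HNF4A, the related factor that drives proximal tubule differentiation, was not detected, nor were EMX2, OSR1 and EYA1, factors of the embryonic kidney.

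The proximal tubule reabsorbs most of the filtered solutes. Of 30 of its genes 9 were expressed (30.0%, against 47.1% of all protein-coding genes), 10 were at trace level and 11 were not detected (36.7%, against 31.9%). GGT1, the brush border gamma-glutamyltransferase, had 499, 219, 277 and 348 normalized counts, and SLC3A1, the heavy chain of the cystine transporter, had 307, 208, 229 and 283, with 54.6% of its exon bases shared with another gene. SLC2A2, the low-affinity glucose transporter of kidney and liver, had 57.9, 154, 102 and 154. ANPEP, the brush border aminopeptidase, had 340.0, 99.4, 118 and 93.7, and MIOX, the renal inositol oxygenase, had 79.8, 40.6, 24.9 and 29.5. In both, siSCR 1 lay highest; without it ANPEP fell from 33.4 to 21.3 per kb. The phosphate and sodium-glucose cotransporters SLC34A1, SLC5A1 and SLC5A2, the organic anion transporters SLC22A6 and SLC22A8, the gluconeogenic enzymes FBP1, PCK1 and G6PC1, and GATM and GLYAT were not detected. All of these lie under the limit of 0.252 RPM.

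Of 17 genes of the other nephron segments, 3 were expressed (17.6%, against 47.1% of all protein-coding genes). CLDN16, the tight junction protein of the thick limb, had 191, 237, 199 and 223 normalized counts. AQP3, a water and glycerol channel, had 17.6, 22.4, 15.7 and 28.5, and PODXL, podocalyxin, 12.6, 12.8, 23.5 and 19.4. The podocyte gene NPHS1, the thick limb genes UMOD and SLC12A1, PVALB, AQP2, the sodium channel subunits SCNN1A and SCNN1B, and the intercalated cell genes ATP6V1B1 and FOXI1 had no read. Among 11 aquaporins, only AQP1 and AQP3 passed the minimum (18.2%, against 47.1% of all protein-coding genes). AQP1 was at 14.2 ± 3.93 and AQP3 at 7.14 ± 1.94 per kb. AQP11 had 2.04 to 7.48 normalized counts, AQP4 had 0 to 1.07, and AQP2, AQP5, AQP6, AQP7, AQP8, AQP9 and AQP10 had none.

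Of 21 markers used for renal carcinoma 14 were expressed (66.7%, against 47.1% of all protein-coding genes), with a list median of 13.8 per kb. VIM reached 1788 ± 123 per kb. CD70, a ligand of the tumour necrosis factor family that is common on clear-cell tumours, had 1591, 1289, 1193 and 1209 normalized counts, 862 ± 121 per kb and rank 139 (chromosome 19 from 6583183 to 6604103). Its 4 libraries lay close together, so the high rank did not rest on siSCR 1. KRT18 and KRT8, the keratin pair of simple epithelia, had 242 ± 22.4 and 77.1 ± 25.8 per kb, and TGFBI, a matrix adaptor protein, 88.8 ± 17.3. NNMT, nicotinamide N-methyltransferase, had 488, 126, 122 and 120.2 normalized counts and varied most. siSCR 1 was the high library for both NNMT and CA12, and without it NNMT fell from 73.3 to 42.0 per kb. CA9, the carbonic anhydrase that marks clear-cell tumours, NDUFA4L2, a mitochondrial subunit under HIF control, KRT19, FABP7 and KIT were not detected.

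Tumour suppressors of the kidney were nearly all read. Of 21, 18 were expressed (85.7%, against 47.1% of all protein-coding genes), 3 were at trace level and none was without a read. Their median was 11.95 per kb. FH, fumarate hydratase, had 118, 249.98, 299.6 and 234 normalized counts and 105 ± 36.0 per kb; siSCR 1 was its low library. SMARCA4, the chromatin remodelling ATPase, had 1235, 1379, 1332 and 1437, or 85.3 ± 5.42 per kb, and overlapped FH. The counts of other members were, for STAG2, a cohesin subunit, 473, 409, 469.6 and 494, and for NF2, the gene of merlin, 211, 259.6, 277 and 220.0. RB1, the restriction point gatekeeper, had 179.7, 202, 178 and 153 and KDM5C, a histone demethylase, 292, 214, 181 and 256. Of the chromosome 3 suppressors, PBRM1 had 149 to 228, BAP1 52.9 to 65.4 and SETD2 141 to 192. VHL (chromosome 3 from 10141008 to 10152220) had 1.68, 1.07, 1.31 and 1.02 normalized counts, from 5 reads in all, and 0% of its exon bases were shared with another gene. VHL was thus at trace level although the other members of this chromosome named here passed the minimum. CDKN2A, the locus of an inhibitor of CDK4 and CDK6, had 5.04, 5.34, 7.85 and 4.07 and its neighbour CDKN2B 20.1, 11.8, 9.16 and 10.2, while MTAP beside them had 24.3, 33.1, 41.9 and 40.7.

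Several genes of oxygen sensing itself had few reads. HIF is a dimer of an oxygen-labile alpha subunit, HIF1A, EPAS1 or HIF3A, with ARNT; prolyl hydroxylases of the EGLN family mark the alpha subunit in oxygen, and VHL with ELOB, ELOC, CUL2 and RBX1 ubiquitinates it. Of 16 such genes 10 were expressed (62.5%, against 47.1% of all protein-coding genes). HIF1A (chromosome 14 from 61695513 to 61748259) had 29.4, 13.9, 7.85 and 26.5 normalized counts and EPAS1, which codes for HIF-2alpha (chromosome 2 from 46293667 to 46386703), had 24.3, 7.48, 2.62 and 9.17. Both fell short of the minimum in at least 1 library, siSCR 1 was highest for both, and their ranges overlapped. Of their exon bases 5.14% and 0% are shared with another gene. Per kb HIF1A was at 3.77 ± 1.98 and EPAS1 at 1.49 ± 1.29. HIF3A was not detected. ARNT had 72.2, 54.5, 81.1 and 70.3 and ARNT2 0, 1.07, 0 and 1.02. Transcript counts say nothing of the stability of these proteins, which is where oxygen acts.

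Few reads can come from low expression or from low counting, which cannot be told apart here for VHL, HIF1A and EPAS1, since the submitters' annotation and counting mode are not known. The other parts of the ligase had more counts per kb than VHL in every library. ELOB had 1191, 731, 844 and 864 normalized counts or 804 ± 176 per kb, RBX1 had 111 ± 20.2, ELOC 74.98 ± 10.0 and CUL2 11.99 ± 1.83, against 0.301 ± 0.0716 for VHL. Among the hydroxylases, EGLN2 had 121, 174, 194 and 178, EGLN1 118, 123, 144 and 102 and EGLN3 10.9, 9.61, 9.16 and 16.3. Per kb EGLN1 was 10.7 times EGLN3 (6.33 to 15.9 over the libraries), or 4.24 times with the longest transcript as the length. HIF1AN, the asparagine hydroxylase that limits HIF transactivation, had 299, 236, 194 and 279. The coactivators EP300 and CREBBP had 281, 268, 297 and 230.2 and 220.0, 188, 169 and 199 normalized counts.

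HIF targets were expressed in part. Of 36 targets 22 were expressed (61.1%, against 47.1% of all protein-coding genes) and 9 were at trace level. CA9, NDUFA4L2, EPO, LOX and INHBB had no read. The list median was 9.33 per kb, but 15.3 in siSCR 1 and 8.17 to 8.88 in the others. CCND1, cyclin D, had 1730.2, 1136, 1197 and 1016 normalized counts and 263 ± 65.4 per kb (chromosome 11 from 69641087 to 69654474). LOXL2, a collagen cross-linking oxidase, had 1217, 460.4, 511 and 422, and TGFA, a ligand of EGFR, 799, 375, 272 and 328. PFKFB3, which makes the allosteric activator of glycolysis, had 381, 408, 576 and 412, P4HA1, a collagen prolyl hydroxylase, 225, 162, 162 and 147, and VEGFA, the angiogenic factor of these tumours, 80.6, 34.2, 47.1 and 35.6. All 6 were expressed in each library, but VEGFA was the lowest of the 22 expressed targets, at 3.42 per kb and rank 8652. DDIT4, a stress-induced inhibitor of mTOR signalling, had 103, 21.4, 18.3 and 26.5 and MXI1, a repressor of the MAX network, 215, 64.1, 101 and 60.1; these were the most uneven members, with siSCR 1 high. Without it DDIT4 fell from 20.6 to 10.7 per kb and LOXL2 from 114 to 81.4. EPO, the hormone erythropoietin, LOX, lysyl oxidase, and INHBB, an inhibin subunit, were without a read, as were CA9 and NDUFA4L2. Of CA9's exon bases 38.5% are shared with another gene, where reads could go uncounted. Of the 2848 protein-coding genes that share 10% to 50%, 20.4% were not detected, against 31.9% of all. The share was 40.3% for genes that share 50% to 90% and 86.1% for those that share 90% or more. Whether overlap lowered the count of CA9 was not tested.

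The promoters of targets with and without reads are set side by side here because both kinds carry the HIF core motif. HIF dimers bind ACGTG or GCGTG, which was searched on both strands (as CACGT or CACGC on the other) in the 250 bases before the RefSeq start (GRCh38.p14); a CACGTG counts on both. The sequences run 5′ to 3′ on the gene's strand with the core in capitals.
CA9 (not detected; chr9:35673898-35673926, plus strand): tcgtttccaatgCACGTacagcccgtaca
LOX (not detected; chr5:122078428-122078456, minus strand): gctccctgtgcaACGTGtctggggggagg
NDUFA4L2 (not detected; chr12:57240766-57240794, minus strand): gggtgtgcctccGCGTGggggcgtttccg
BNIP3 (expressed; chr10:131982040-131982068, minus strand): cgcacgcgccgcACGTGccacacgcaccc
DDIT4 (expressed; chr10:72273787-72273815, plus strand): agaacgttgcttACGTGcgcccggagtcc
PLIN2 (expressed; chr9:19127596-19127624, minus strand): gagggcgccgggACGTGcccgagggtgac
The cores in capitals begin 18, 185, 20, 133, 125 and 120 bases before the start. Further cores lie in each of these windows but that of CA9. In BNIP3 they begin 143, 134, 125, 116 and 104 bases before the start. The placement of the NDUFA4L2 window could not be checked against GENCODE transcripts. A window was given for 29 of the targets and 21 held a core: 11 of 15 expressed, 7 of 9 at trace level and 3 of 5 not detected. Of all 27305 windows 43.1% held one, and of those of expressed protein-coding genes 59.7%, at trace level 48.7% and not detected 36.9%. A match is a description of these letters and not a bound site. The undetected CA9, LOX and NDUFA4L2 thus hold a core as do BNIP3, with 81.4, 97.2, 114 and 112 normalized counts, and PLIN2, with 267, 186, 266 and 172.

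**Figure D3:**
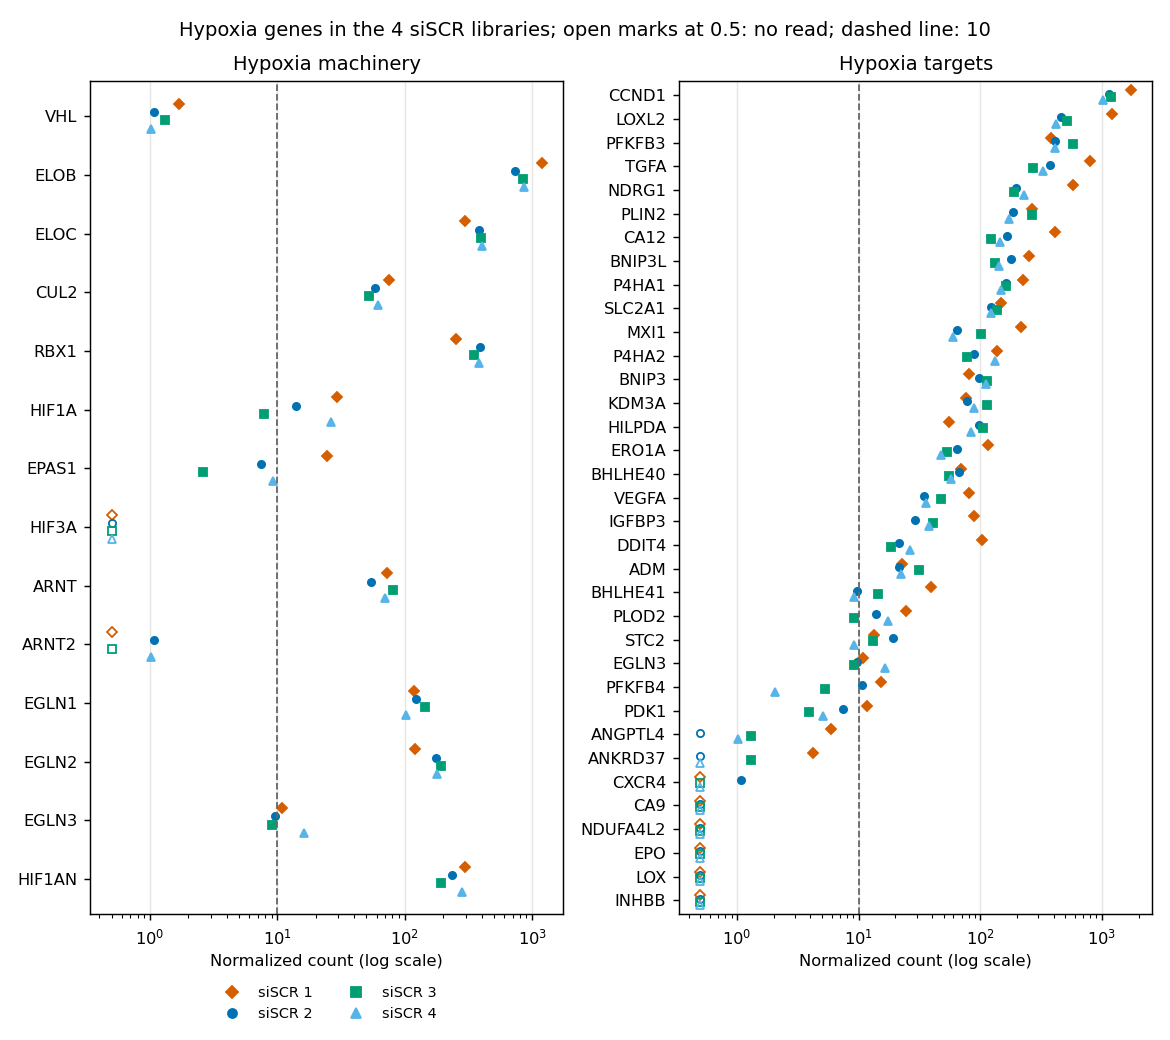
Normalized count (x axis, log scale) of oxygen-sensing genes (left) and HIF targets (right) in the 4 siSCR libraries, 1 mark per library; open marks at 0.5 stand for no read and the dashed line is the minimum of 10. VHL, HIF1A, EPAS1, HIF3A, ARNT2 and EGLN3 lie left of the line or across it. Among the targets, CA9, EPO, LOX, NDUFA4L2 and INHBB are open in all libraries.

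Glycolysis is the pathway that HIF raises in these tumours, and several but not all enzymes of its trunk were abundant. Of 38 glycolytic and gluconeogenic genes 21 were expressed (55.3%, against 47.1% of all protein-coding genes). GAPDH had 7681 ± 913 per kb, PKM, pyruvate kinase, 1426 ± 319, LDHB 1089.6 ± 106, ALDOA 782 ± 52.9, ENO1 777 ± 221 and TPI1 690.5 ± 84.8. ALDOA shares 53.5% of its exon bases with another gene and LDHB 33.4%. The paralogues were unequal. LDHB, the heart-type lactate dehydrogenase, exceeded LDHA, the HIF target, 5.26-fold per kb (3.76 to 6.08 over the libraries), from 2803, 3540.3, 3299 and 3359 against 1552, 1268, 1176 and 1149.8 normalized counts. HK1 exceeded HK2 26.0-fold, ENO1 exceeded ENO2 13.1-fold and PFKP exceeded PFKL 10.1-fold; in none of these pairs did the ranges overlap. Other trunk enzymes were much lower, with HK1 at 27.2 per kb and rank 3922. PGAM1 had 10.1, 24.6, 24.9 and 21.4 normalized counts, with siSCR 1 low. At 7.87 per kb and rank 7188, PGAM1 was under the median expressed gene. SLC2A3, HK3, PGAM2, FBP1, FBP2, PCK1 and G6PC1 had no read; PGAM2 shares all its exon bases with another gene.

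Glucose enters through carriers of the SLC2 family and lactate leaves through monocarboxylate carriers. Of 11 glucose transporters 4 were expressed (36.4%, against 47.1% of all protein-coding genes). SLC2A2 was at 34.2 ± 13.5, SLC2A1 at 28.1 ± 2.59, SLC2A8 at 27.8 ± 4.64 and SLC2A6 at 10.7 ± 5.64 per kb. SLC2A1, the widespread high-affinity carrier and a HIF target, had 149, 123, 136 and 123 normalized counts. The ranges of SLC2A2 and SLC2A1 overlapped, and their ratio was 0.539 in siSCR 1 and 1.04 to 1.73 in the others, so no order between them is given. SLC2A13 had 7.85 to 20.4, SLC2A12 0 to 2.62, SLC2A4 0 to 0.840 and SLC2A9 0 to 0.840 normalized counts; SLC2A3, SLC2A5 and SLC2A10 had none. SLC16A1, the lactate carrier of most cells, exceeded SLC16A3, the carrier under HIF control, 3.75-fold per kb (2.45-fold by the longest transcript). Of 15 carbonic anhydrases, CA12 and CA2 were expressed (13.3%, against 47.1% of all protein-coding genes), at 28.7 ± 18.2 and 23.03 ± 4.54 per kb. Their ranges overlapped and the ratio was above 1 in siSCR 1 at 1.88 and 0.750 to 1.10 in the others. CA11 had 3.20 to 9.23 normalized counts, CA5B 9.16 to 24.3, CA13 1.31 to 5.88, CA6 0 to 1.31 and CA10 0 to 0.840; CA1, CA3, CA4, CA5A, CA7, CA8, CA9 and CA14 had none.

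**Figure D4:**
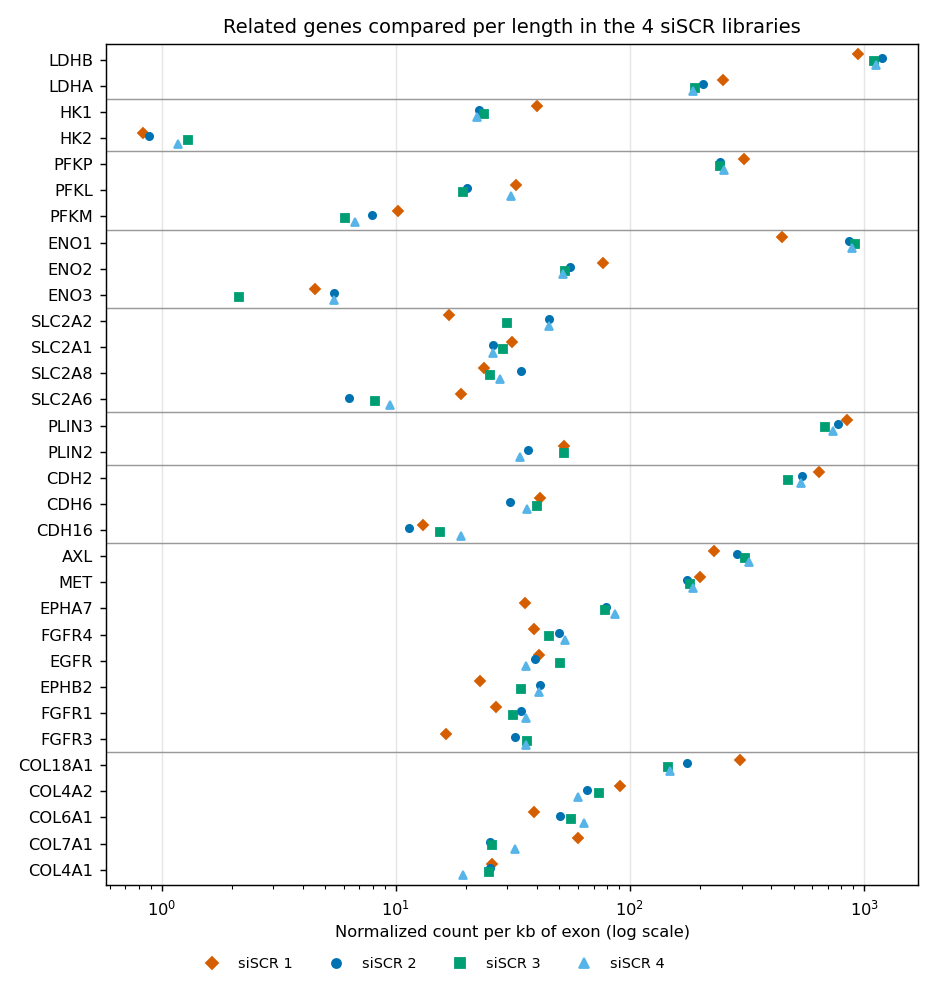
Normalized count per kb of exon (x axis, log scale) for related genes in groups set apart by lines, 1 mark per siSCR library. LDHB, HK1, PFKP, ENO1, PLIN3 and CDH2 lie above their paralogues in every library, and SLC2A2 and SLC2A1 overlap.

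Genes of fatty acid synthesis were expressed in part. Of 22 of them 14 were expressed (63.6%, against 47.1% of all protein-coding genes). The list median was 6.27 per kb, against 2.06 over all protein-coding genes. ACLY, which cleaves citrate to acetyl-CoA, had 905, 926, 929 and 892 normalized counts and 175 ± 3.36 per kb. ELOVL1, an elongase of long chains, had 103 ± 9.49 per kb, SCD, the stearoyl desaturase, 74.0 ± 19.0, ACSL3, an acyl-CoA ligase, 69.2 ± 4.11, FASN, the fatty acid synthase, 68.0 ± 1.95 and ELOVL5 51.4 ± 6.51. ACLY exceeded FASN in every library, 2.57-fold in the mean, and SCD exceeded its paralogue SCD5 11.8-fold. ELOVL6 had 11.8, 25.6, 26.2 and 30.6 and SCD5 26.0, 26.7, 11.8 and 42.8, the least even members. ELOVL3, ACSL5 and ACSL6 were not detected.

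Droplet proteins were represented by 2 perilipins. Of 20 storage genes 8 were expressed (40%, against 47.1% of all protein-coding genes). PLIN3, the perilipin found on nascent droplets of most cells, had 2385, 2178, 1907 and 2075 normalized counts, 759 ± 71.1 per kb and rank 168 (chromosome 19 from 4838341 to 4867768). PLIN2, the droplet coat that marks clear-cell tumours, had 267, 186, 266 and 172 and 43.8 ± 9.97 per kb, 17.3-fold less than PLIN3 (13.0 to 21.8 over the libraries). By the longest transcript the gap was 8.11-fold. PNPLA2, the triglyceride lipase, had 363, 198, 115 and 155, MGLL, which cleaves monoglycerides, 695, 593, 632 and 608, and HILPDA, a hypoxia-induced inhibitor of PNPLA2, 55.4, 97.2, 105 and 84.5. SOAT1, which esterifies cholesterol, had 290.5, 238, 216 and 199 and DGAT1, the last enzyme of triglyceride synthesis, 85.6, 26.7, 47.1 and 39.7. PNPLA2 and DGAT1 were high in siSCR 1. PLIN1, PLIN4, PLIN5, CIDEA, LIPE and G0S2 were not detected, so neither the adipocyte perilipin PLIN1 nor the hormone-sensitive lipase LIPE was read. BSCL2, the gene of seipin, had 0 to 1.07 normalized counts, with 51.9% of its exon bases shared.

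Sterol synthesis was the most completely expressed of the lipid lists, with a median of 13.4 per kb. In it 15 of 18 genes were expressed (83.3%, against 47.1% of all protein-coding genes). SQLE, squalene epoxidase, had 334, 212, 114 and 161 normalized counts, 47.6 ± 22.0 per kb and rank 2579. INSIG1, the retention factor of the sterol sensor, had 72.2, 92.9, 111 and 82.5. HMGCS1 stood at 21.0 ± 4.43 and NR1H2, a liver X receptor, at 19.0 ± 3.12 per kb. LSS, lanosterol synthase, had 12.6, 29.9, 39.2 and 20.4; SQLE and LSS were the most uneven. CYP51A1, the demethylase that follows LSS in the pathway, had 0.840, 5.34, 5.23 and 4.07, with 83.2% of its exon bases shared with another gene. ABCG1, a sterol exporter, was not detected.

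For uptake and oxidation of fatty acids, 12 of 23 genes were expressed (52.2%, against 47.1% of all protein-coding genes). Their list median was 3.48 per kb. The mitochondrial trifunctional subunits HADHA and HADHB had 238 ± 43.6 and 38.1 ± 3.22 per kb, ACADVL and ACADM, acyl-CoA dehydrogenases, 102 ± 29.1 and 49.2 ± 2.64, and FABP5, a binding protein, 32.2 ± 4.83. CPT1A, the entry step of mitochondrial oxidation and a gene that HIF represses, had 141, 99.4, 98.1 and 103 normalized counts. PPARGC1A, the coactivator of mitochondrial biogenesis, had 34.4, 90.8, 94.2 and 81.5 and PPARA, the receptor that drives oxidation genes, 59.6, 32.0, 24.9 and 18.3. The scavenger receptor CD36, lipoprotein lipase LPL, FABP1, FABP2, FABP3, FABP4, FABP7 and CPT1C were not detected.

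The share of matrix genes expressed, 36.8% of collagens, 46.2% of glycoproteins and 13 of 26 remodelling genes, lay near or under the 47.1% of all protein-coding genes. Of 19 collagen genes 7 were expressed: COL18A1 at 191 ± 70.6, COL4A2 at 72.6 ± 13.4, COL6A1 at 52.4 ± 10.4, COL7A1 at 35.8 ± 16.5, COL6A2 at 24.3 ± 4.76, COL4A1 at 23.9 ± 3.07 and COL1A1 at 3.25 ± 1.31 per kb. COL18A1, the source of endostatin, had 2514, 1492, 1237 and 1267 normalized counts. COL4A2 exceeded COL4A1, its partner in the collagen IV trimer and its neighbour on a shared promoter, 3.04-fold (2.60 to 3.53 over the libraries). COL1A1 had 35.3, 28.8, 47.1 and 16.3, whereas COL1A2, its fibrillar partner, had no read, nor had COL4A3 and COL4A6.

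Among 26 matrix glycoproteins 12 were expressed. FN1, fibronectin, had 22142, 2949, 3251 and 2793 normalized counts, 449.5 ± 553 per kb over 4 libraries and rank 286 (chromosome 2 from 215360440 to 215436172). siSCR 1 was 7.39-fold above the mean of the others, the largest gap in the list, and without it the level was 173 per kb. SPP1, osteopontin, had 1806, 682, 555 and 757 and 409 ± 249 per kb; FN1 was above it in siSCR 1 and below it in siSCR 2, 3 and 4, so their order rests on 1 library. Without siSCR 1, SPP1 stood at 286 per kb. CCN1, a matricellular growth regulator, had 166, 377, 525 and 347. The laminin chains LAMC1 and LAMB1 had 122 ± 7.43 and 92.1 ± 11.97 per kb, and LAMA3 had 57.9, 12.8, 31.4 and 23.4 normalized counts, high in siSCR 1. LAMA4, NID2, THBS2, TNC, VTN and POSTN were not detected, tenascin TNC and periostin POSTN among them.

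Of 26 remodelling genes 13 were expressed. TIMP1, an inhibitor of metalloproteinases, had 547, 389.9, 447 and 429.8 normalized counts and 294 ± 43.2 per kb, 4.26-fold above TIMP2. LOXL2 stood at 114 ± 66.3 and SERPINE2, a protease nexin, at 70.7 ± 20.3 per kb. MMP14, the membrane-bound metalloproteinase, had 883, 264, 225 and 274, and PLAU, the urokinase-type plasminogen activator, 647, 106, 115 and 97.8. Both were high in siSCR 1, and without it MMP14 fell from 92.2 to 57.0 and PLAU from 81.9 to 36.0 per kb. LOX, LOXL3, MMP3, MMP13 and TIMP4 had no read.

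N-cadherin was abundant and E-cadherin was at trace level, beside expressed keratins and claudins. CDH2, N-cadherin, had 3186, 2689, 2344 and 2672 normalized counts, 550.1 ± 70.1 per kb and rank 225 (chromosome 18 from 27950966 to 28177446), while CDH1, E-cadherin, had 0.840, 1.07, 0 and 0. CDH6, the cadherin of the proximal tubule, stood at 37.2 ± 4.85 per kb, 14.8-fold under CDH2. CLDN2, the leaky claudin of the proximal tubule, had 1257, 1160.2, 959 and 1265, CLDN4 308, 467, 442 and 432 and CLDN1 222, 385, 328 and 348. KRT18 had 673, 815, 798 and 831, KRT8 289.6, 523, 600.4 and 709 and KRT7 62.1, 125, 83.7 and 128; KRT7 and KRT8 were the least even. Of the whole list, 13 of 31 were expressed (41.9%, against 47.1% of all protein-coding genes). CDH3, CDH11, KRT19, KRT20, KRT5, ESRP1, GRHL2, OVOL1, TWIST1 and TWIST2 were not detected. The repressors TWIST1 and TWIST2 and the epithelial splicing factor ESRP1 are among these. ZEB1, another repressor of the list, was expressed, at 34.9 per kb against 20.9 for the median expressed gene.

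Of 26 integrin chains 11 were expressed (42.3%, against 47.1% of all protein-coding genes). ITGB1, the common beta chain, had 1629.5, 2094, 2064 and 1851 normalized counts and 318 ± 35.9 per kb, 8.46-fold above ITGB5. Its partners ITGA3, a laminin receptor chain, ITGAV, ITGA5, the fibronectin receptor chain, and ITGA6 had 223 ± 122, 54.8 ± 10.7, 28.2 ± 2.56 and 18.1 ± 5.99 per kb. ITGA3 ranged from 1502 to 3970.1 normalized counts and ITGA6 from 79.8 to 167. ITGA2B, ITGA4, ITGA8, ITGA9 and ITGAL had no read; these include the platelet and leukocyte chains ITGA2B, ITGA4 and ITGAL.

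Receptor tyrosine kinases pass growth signals across the membrane, and several are drug targets in renal cancer. Of 53, 19 were expressed (35.8%, against 47.1% of all protein-coding genes). AXL, the GAS6 receptor, had 1176, 1475, 1598 and 1666 normalized counts, 287 ± 42.1 per kb and rank 472 (chromosome 19 from 41219203 to 41261766). MET, the hepatocyte growth factor receptor, had 1408, 1232, 1271 and 1314, 186 ± 10.7 per kb and rank 740 (chromosome 7 from 116672390 to 116798386). AXL exceeded MET 1.55-fold, and MET exceeded EGFR, with 511, 492, 630.5 and 452, 4.45-fold. EPHA7, an ephrin receptor, had 266, 589, 582 and 644, FGFR4 188, 240.4, 218 and 256 and EPHB2 285, 516, 428 and 512. The ranges of EPHA7, FGFR4 and EGFR overlapped. TYRO3, a relative of AXL, had 29.4, 71.6, 32.7 and 58.1. MST1R, KIT, FLT3, PDGFRA, the vascular endothelial growth factor receptors FLT1, KDR and FLT4, FGFR2 and INSRR were not detected, so VEGFA was read without a transcript of these receptors.

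Receptors for cytokines, transforming growth factor beta and Notch ligands were expressed in 23 of 33 cases (69.7%, against 47.1% of all protein-coding genes). The death receptors TNFRSF10A and TNFRSF10B, which bind TRAIL, had 96.8 ± 40.1 and 47.7 ± 8.59 per kb, and TNFRSF1A, the main receptor of tumour necrosis factor, 67.7 ± 4.53. IL13RA1 had 44.9 ± 9.78, the interferon receptor chains IFNGR2 and IFNAR2 41.0 ± 11.9 and 37.2 ± 1.17; 83.2% of the exon bases of IFNAR2 are shared. IL6R ranged from 10.1 to 31.0 normalized counts. IL13RA2, IL2RG, CD40 and ACVRL1 were not detected. G protein-coupled receptors were scarce, with 3 of 29 expressed (10.3%, against 47.1% of all protein-coding genes). That count was 5 with the minimum lowered to 5 or asked of 3 libraries. LPAR1, a lysophosphatidate receptor, had 135, 166, 139 and 127 normalized counts. ADORA1, an adenosine receptor, had 28.5, 49.1, 52.3 and 62.1, and F2R, the thrombin receptor, 16.8, 32.0, 32.7 and 27.5. OXTR had 9.23 to 34.6 and S1PR2 6.11 to 21.8. Those without a read include the adrenergic receptor ADRB1, the endothelin receptors EDNRA and EDNRB and the angiotensin receptor AGTR1.

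Of 25 nuclear receptors 15 were expressed (60%, against 47.1% of all protein-coding genes). NR2F2, an orphan receptor of mesenchyme, had 700.2, 1192, 1028 and 1092 normalized counts and 155 ± 33.0 per kb, and NR2F1 had 35.3, 176, 192 and 181, the most uneven of the list, with siSCR 1 low. NR3C1, the glucocorticoid receptor, stood at 47.8 ± 7.98, RXRB at 46.8 ± 5.83, ESRRA at 30.5 ± 5.40 and RXRA at 23.7 ± 3.84 per kb. The oestrogen and progesterone receptors ESR1, ESR2 and PGR had no read, nor had RARB and RXRG. On the immune surface, 12 of 20 genes were expressed (60%, against 47.1% of all protein-coding genes), with a median of 9.16 per kb. Besides CD70, B2M, the light chain of class I molecules, had 533 ± 119.8 per kb, and HLA-C and HLA-E 305 ± 74.8 and 72.5 ± 27.6; HLA genes share sequence, so their separate levels are uncertain. CD276, a checkpoint ligand, had 429.8, 415, 454 and 491 and ICAM1, an adhesion molecule for leukocytes, 68.8, 25.6, 18.3 and 21.4, highest in siSCR 1 (without it 5.88 per kb, against 9.05). PDCD1LG2, VTCN1, HLA-DRA, CIITA and IL6 had no read; CIITA is the switch for class II genes and HLA-DRA a class II chain.

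Among cell cycle genes, cyclin D and the CDK inhibitor p21 ranked high. Of 31 G1 regulators 21 were expressed (67.7%, against 47.1% of all protein-coding genes). CDKN1A, which codes for p21, had 4349, 892, 948 and 853 normalized counts, 577 ± 566 per kb and rank 214 (chromosome 6 from 36676460 to 36687339). siSCR 1 was 4.84-fold above the mean of the others, where it ranged from 853 to 948; without it the level was 294 per kb. CCND1 exceeded CCND3 12.1-fold per kb, or 5.58-fold by the longest transcript. CDK4 and CDK6, its kinase partners, had 240.2 ± 59.2 and 158 ± 14.5 per kb with overlapping ranges, and CDK2 and E2F1 112 ± 26.8 and 52.2 ± 21.1. RBL1, a pocket protein, had 23.5, 64.1, 99.4 and 54.0, low in siSCR 1, and MYCN was not detected.

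Replication and mitosis genes were the most fully expressed nuclear lists, 22 of 24 (91.7%) and 25 of 26 (96.2%), against 47.1% of all protein-coding genes. Their medians were 42.3 and 79.8 per kb, against 20.9 for the median expressed gene. RRM1, of ribonucleotide reductase, stood at 221 ± 96.1 per kb, TYMS, thymidylate synthase, at 183 ± 20.5, PCNA, the sliding clamp, at 176 ± 29.1, TK1 at 175 ± 63.1, MCM7 at 167 ± 52.5 and MCM3 at 92.1 ± 24.0. TOP2A, the topoisomerase of chromosome separation, had 2358, 6856, 6474 and 7565 normalized counts and 903 ± 365 per kb. CDC20, the activator of the anaphase complex, had 273, 1013, 1033 and 1049, UBE2C 106, 428, 518 and 472, TPX2 374, 1199, 1190.4 and 1234, AURKB 204, 733, 831 and 707, CCNB1 155, 690.1, 722 and 827 and PLK1 188, 1032, 903 and 965. In each of these mitotic genes siSCR 1 was the lowest library.

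This gap ran through both lists. All 22 expressed S phase genes and all 25 expressed mitosis genes were lower in siSCR 1 than in every other library, by a median log2 difference of -1.19 and -1.89 from the mean of siSCR 2 to 4. The S phase median was 17.6 per kb in siSCR 1 and 53.2 to 55.5 in the others, and the mitosis median 32.2 and 98.6 to 119.6. MCM6 had 39.5, 125, 157 and 128 normalized counts and FEN1, the flap endonuclease, 43.7, 175, 169 and 162. Over all expressed protein-coding genes the same median log2 difference was -0.02. The mitochondrial share, CDKN1A and FN1 were higher in siSCR 1, where the S phase and mitosis genes were lower. Their part in that gap was not tested. AKR1A1, the gene targeted in the other libraries, had 390.4, 256, 200.1 and 242 normalized counts here, 87.3 ± 26.4 per kb and rank 1497.

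**Figure D5:**
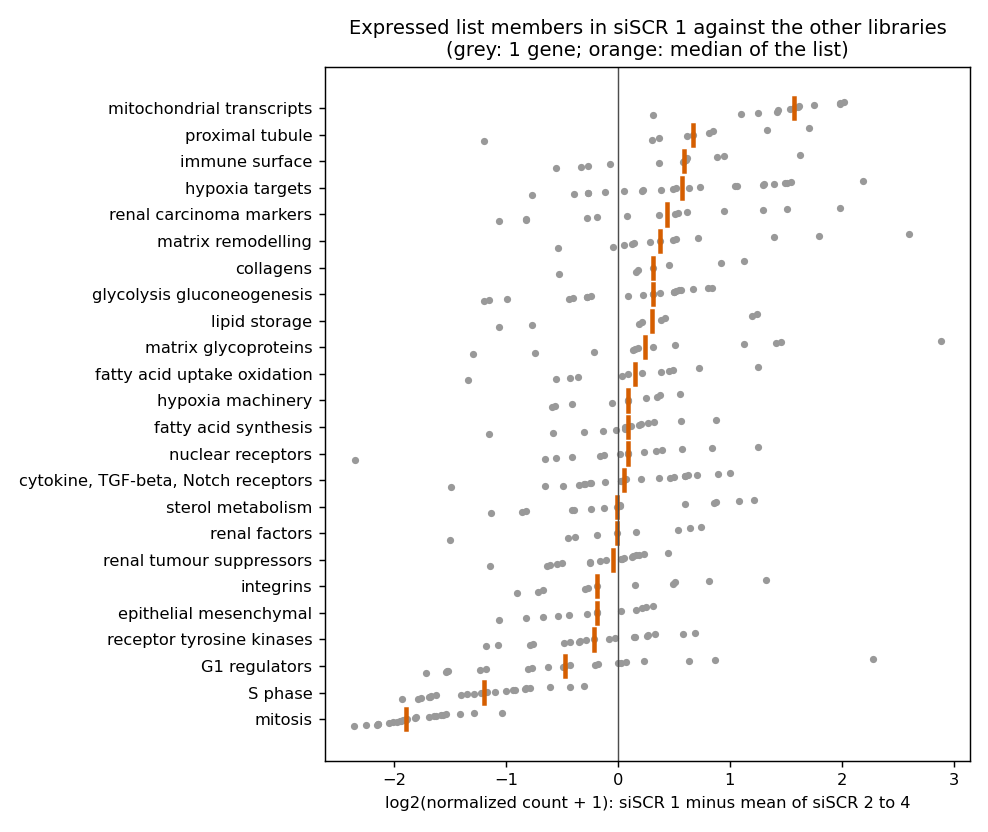
Log2 difference between siSCR 1 and the mean of siSCR 2 to 4 (x axis) for the expressed members of each list with 7 or more of them, 1 point per gene, with the list's median marked. Mitosis and S phase genes lie left of 0 in every case, at medians of -1.89 and -1.19, and mitochondrial genes lie right of it.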

How the data were processed

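RNA-seq counts per gene of 4 siSCR libraries of 769-P cells were used. Per the submitters' processing notes, cutadapt, FastQC, STAR, HTSeq and DESeq2 were used with the genome build GRCh38, and per the labels' protocols counts were made with HTSeq and normalized by relative log expression (RLE) in DESeq2. Tool versions, annotation and strandedness are not given in the sources used here. Per the values, the authors deposited log2 numbers, which were tested on the file to be log2(RLE-normalized count + 1). They were turned back into normalized counts; dividing by the value of 1 read gave whole reads for 100% of values (within 0.01 read), whose sum is the depth, 2271348 to 3836109 reads per library. Columns for the other 7 libraries were not used.

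Symbols were updated by Ensembl ID, and exon lengths, gene types and positions came from GENCODE 29 (GRCh38), to which 33001 of 33080 genes matched; this may not be the authors' annotation. A level is the normalized count divided by the length of all annotated exons merged. Genes whose exons overlap another gene's can lose reads in counting, so the shared part is given. A list median is the back-transformed median of the mean log2(level + 1). A single group allows no comparison of conditions, hence no test and no count model. Spread is the SD over n = 4. Intervals are Wilson's at 95%. Promoter windows are from RefSeq; matching used Entrez IDs. Work was done in Python 3.11.15 with numpy 2.4.6, pandas 2.3.3, scipy 1.17.1 and matplotlib 3.10.9, and the code was tested on simulated data.

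The 33 lists (679 genes) and the members were chosen with earlier results of these data known; 4 listed genes were not analysed here, and some that the counts of the lists include are not reported here by name. The rule for named genes took the 15 protein-coding genes of highest level, and of each list the 6 highest members, those without a read (the first 10 in list order) and the 2 expressed members of largest spread. It also took all members of the 3 families and of the oxygen-sensing list, and AKR1A1. Chosen after their values were seen were the 40 pairs of related genes, MALAT1 and the genes of the closing section. So were PBRM1, BAP1, SETD2, CDKN2A, CDKN2B, CDH1, ZEB1, VEGFA, BNIP3, BSCL2 and CYP51A1. Alternatives were other minimums (5, 20, or 10 in 3 libraries), upper-quartile and depth scaling (nuclear reads only), longest-transcript length, the median over libraries, other pseudocounts (0.5, 5) and leaving out each library.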

Additional observations from a re-analysis of the deposited data

Results flagged for a closer look

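In 36 of 200 of the expressed genes named here, 1 library lay farther from the other 3 than Dixon's ratio allows for 4 values, on the log2 scale. Chance does so in about 1 of 20 groups, but the share here cannot be read against that, since the rule for named genes took those of largest spread; over all expressed protein-coding genes it was 9.57%. The library was siSCR 1 in 34 of them, siSCR 3 in 1 and siSCR 4 in 1. Over all expressed protein-coding genes it was siSCR 1 in 7.23%, and siSCR 2, 3 and 4 in 0.610%, 1.07% and 0.664%.

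siSCR 1 was low in replication and mitosis genes. Its normalized counts were MCM6 (39.5), MCM7 (393), RRM1 (348), TK1 (150.3) and FEN1 (43.7) in S phase, and CCNB1 (155), CDC20 (273), PLK1 (188), AURKB (204), TOP2A (2358), UBE2C (106) and TPX2 (374) in mitosis. Of the regulators CDK2 had 280.4 and E2F1 53.7. The list medians were 17.6 per kb for S phase and 32.2 for mitosis, against 53.2 to 55.5 and 98.6 to 120 in the other libraries. It was also low in LHX1 (408), PGAM1 (10.1), ENO1 (2363), PPARGC1A (34.4), EPHA7 (266), IL6R (10.1) and NR2F1 (35.3).

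siSCR 1 was high in mitochondrial genes, which took 12.1% of its reads: MT-ND2 (31724), MT-CO2 (43285) and MT-CO3 (84406) normalized counts. It was likewise high in CDKN1A, with 4349, and in the matrix genes FN1 (22142), MMP14 (883), PLAU (647) and ITGA3 (3970.1). Among metabolic genes it was high in NNMT (488), HK1 (253) and CPT1A (141). The median of the HIF targets was 15.3 per kb there and 8.17 to 8.88 in the others. FTL was high at 6795 and ACTG1 low at 7337. The part of the mitochondrial share in these gaps was not tested.

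In COL4A1 siSCR 4 was the low library, at 284 against 369 to 379 in the others. In COL6A2 it was siSCR 3, at 92.9 against 139.5 to 149.6.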

How the results depend on the processing

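The number of expressed genes ran from 8226 at a minimum of 20 to 10278 at a minimum of 5, was 9475 to 9542 with a library left out, and stayed 9383 under upper-quartile and depth scaling. Genes with no read numbered 17475 to 18119 with a library left out and 18411 when 1 read was allowed. Of G protein-coupled receptors, 5 were expressed at a minimum of 5 and 5 with the minimum asked of 3 libraries. At a minimum of 20, 1 gene of the other nephron segments, 1 fibroblast or mural marker and 1 aquaporin were left. With each library left out in turn, the list median was 11.6 to 12.5 per kb for tumour suppressors, 3.43 to 4.62 for fatty acid uptake and oxidation, 4.26 to 6.57 for matrix remodelling, 1.75 to 3.26 for epithelial and mesenchymal genes, 3.04 to 3.68 for nuclear receptors and 8.10 to 9.67 for the immune surface. Of the ratios of related genes, those of CA12 to CA2 and FN1 to SPP1 turned. On the log2 scale CA12 over CA2 was -0.013 with the median over libraries and -0.0814 to 0.489 with a library left out, the lowest without siSCR 1. FN1 over SPP1 was -0.79 with the median and -0.725 to 0.321 with a library left out, again lowest without siSCR 1. The cause was not tested; siSCR 1 is the library that sets both. With the longest transcript as the length, 20 of the 40 ratios moved by more than their spread over libraries and 0 turned, and 118 levels of named genes moved. COL18A1 over COL4A2 fell from 2.63 to 1.15, KRT18 over KRT8 from 3.14 to 2.01 and EGFR over ERBB2 from 3.88 to 2.36. Low depth limits the calls of absence, since a gene under 0.252 RPM could be missed. No paired analysis was possible because the described libraries form 1 group, with no other group to pair them with.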

Other observations

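Below the ribosomal and mitochondrial genes, the nuclear protein-coding genes of highest level included cytoskeletal, calcium-binding and iron storage genes. S100A11, a calcium-binding protein, had 4665, 3953, 3754 and 3946 normalized counts and rank 16, and its relative S100A6 had 3917, 3325, 3565 and 3635 and rank 27. FTL, the ferritin light chain, had 6795, 4478, 4298 and 4336 and rank 17. LGALS1, galectin, had 3450.4, 5032, 4254 and 5127 and rank 25, and ACTG1, cytoplasmic actin, had 7337, 14542, 14505 and 13766 and rank 23. The chaperones HSPB1 and HSP90AB1 had 6981, 8609, 8121 and 8353 and 9268, 13222, 11979.5 and 12476. FTL, ACTG1, LGALS1 and HSP90AB1 were each above 149 per kb, the level at rank 918, in every library. FTL, ACTG1 and HSP90AB1 have processed pseudogenes, so their counts are uncertain.

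Of the 93 expressed lincRNA genes, hosts of small nucleolar RNAs led per kb. SNHG25 had 1481, 1454, 1181 and 1886 normalized counts on 278 exon bases, of which 48.6% are shared with another gene. SNHG19 had 133, 153, 167 and 211. SNHG8 had 217, 243, 252 and 207, with 14.2% of its exon bases shared. MALAT1 stood between SNHG25 and SNHG19, at 1013 ± 449 per kb (SD, n = 4).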
